A study of Mus musculus with 12 samples.

Results

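Cyp2b10, a cytochrome P450 that foreign chemicals induce in mouse liver, was described together with its relative Cyp2b9. Beside them stood the nuclear receptors that switch these genes on (Nr1i3, known as CAR, and Nr1i2, known as PXR). The electron donor of microsomal P450 enzymes (Por) and the first enzyme of heme synthesis (Alas1) completed the group. All probe sets annotated to 1 of these 6 genes alone were taken. They came to 9 probe sets of 5 genes, out of 29409 probe sets and 13710 genes in the series: 3 of Cyp2b10, 2 of Nr1i2, 2 of Alas1, 1 of Cyp2b9 and 1 of Nr1i3. No probe set in use was annotated to Por alone, so Por was not analysed here. Cyp2b10 was chosen by its diet difference in liver, and the other genes for what they do around it. The liver diet difference is therefore given below as a description, with its standard error (SE) and no p-value.

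Male FVB/N mice had been fed selenium-deficient diets with 0.1 ppm selenium (0.1 Se, the adequate diet) or 0 ppm selenium (0 Se) added as sodium selenite, from weaning and for 6 weeks. Total RNA of whole liver and whole lung was hybridized to Affymetrix mouse arrays, in the groups 0.1 Se liver, 0 Se liver, 0.1 Se lung and 0 Se lung, with 3 arrays each and 12 in all. Values are log2 MAS5 signals, where a difference of 1 is a doubling, and each array had been scaled on its own. A blank cell is written here as "not listed": it can be an absent call or a signal under 100, and no fold is given against it. Within a tissue and diet the arrays were separate biological replicates per the labels, and whether a liver and a lung came from the same mouse is not given.

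CYP2B enzymes sit in the endoplasmic reticulum and oxidize drugs, pesticides and steroids. In hepatocytes CAR is held in the cytoplasm until a chemical such as phenobarbital, or a change in kinase signalling, releases it into the nucleus, where it pairs with RXR and binds repeats of the hexamer AGGTCA. PXR binds many chemicals directly and shares part of the same target genes. In rodent lung, P450 enzymes of the 2B family are carried mainly by club cells of the airways and occur without treatment with an inducer.

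The start sites of Cyp2b10 and its paralog Cyp2b9 lie on the same strand of chromosome 7, and the 250 bases before each are shown side by side. Cyp2b10 was chosen for its liver diet difference, and whether these bases bear on the diet values of either gene was not tested. They are RefSeq promoter sequences of the build GRCm38.p6, plus strand, from chr7:25897408-25897657 for Cyp2b10 and chr7:26173159-26173408 for Cyp2b9, with any AGGTCA hexamer in capitals.
Cyp2b10: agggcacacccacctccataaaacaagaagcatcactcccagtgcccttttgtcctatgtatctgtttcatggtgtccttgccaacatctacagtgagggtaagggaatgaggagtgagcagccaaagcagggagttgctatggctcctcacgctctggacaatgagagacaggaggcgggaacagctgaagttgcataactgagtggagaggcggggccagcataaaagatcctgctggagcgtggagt
Cyp2b9: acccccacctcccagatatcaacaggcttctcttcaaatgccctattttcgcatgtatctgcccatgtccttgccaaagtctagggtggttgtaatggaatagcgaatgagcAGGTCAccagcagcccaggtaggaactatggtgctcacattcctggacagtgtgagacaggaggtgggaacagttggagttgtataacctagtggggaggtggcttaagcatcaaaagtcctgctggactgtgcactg
Of the aligned bases 182 were identical and 58 differed (75.8% identity), with 20 gap positions. The hexamers AGGTCA and AGTTCA were searched on both strands in the windows of all 6 genes. The only match was an AGGTCA from -138 to -133 before the start of Cyp2b9, a hexamer that 14.0% of 32851 promoter windows of this length hold, while 24.2% hold either. The phenobarbital-responsive enhancer of Cyp2b10, known from earlier work, lies further upstream than this window.

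In liver, Cyp2b10 signal was higher on the 0.1 Se diet by all 3 of its probe sets. With 1425645_s_at it was 13.03, 12.60 and 12.76 in 0.1 Se livers, against 11.68, 11.06 and 12.02 in 0 Se livers. With 1422257_s_at it was 12.78, 12.37 and 12.27 in 0.1 Se livers, against 11.38, 10.78 and 11.77 in 0 Se livers. With 1451787_at it was 12.41, 11.79 and 12.02 in 0.1 Se livers, against 10.62, 10.24 and 11.22 in 0 Se livers. Every 0.1 Se liver thus lay above every 0 Se liver, with a gap between the groups of 0.50 to 0.59 on the log2 scale, and the second 0 Se liver was the lowest each time.

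The differences in log2 signal, 0.1 Se minus 0 Se, were 1.21 ± 0.21 (SE, 2.32-fold), 1.17 ± 0.22 (2.24-fold) and 1.38 ± 0.23 (2.60-fold) for these 3 probe sets in the same order, n = 3 per diet. Their 95% intervals were 0.75 to 1.67, 0.68 to 1.65 and 0.87 to 1.88. All 3 read the same RNA, so they are no independent repeats, and the ending _s_at marks probe sets that can also bind related transcripts, which makes the gene name of the first 2 less certain. The probe set 1451787_at carries no such mark and had the largest difference. Of the 16575 probe sets tested in liver, 7 had a larger difference than 1451787_at in either direction, all higher in 0.1 Se, and 16 had a larger one than 1422257_s_at, the other Cyp2b10 probe sets among them.

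Cyp2b10 also varied more among the 0 Se livers than most genes. Its SD there was 0.49 to 0.50, against a median SD of 0.14 over all probe sets tested, and 97.5% to 97.6% of them varied less. Among the 0.1 Se livers the SD was 0.22 to 0.31, against a median of 0.19. Without the second 0 Se liver the differences were 0.90 to 1.15 and without the third one 1.39 to 1.64, so the size, though not the direction, depended on which 0 Se livers were used.

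**Figure D1:**
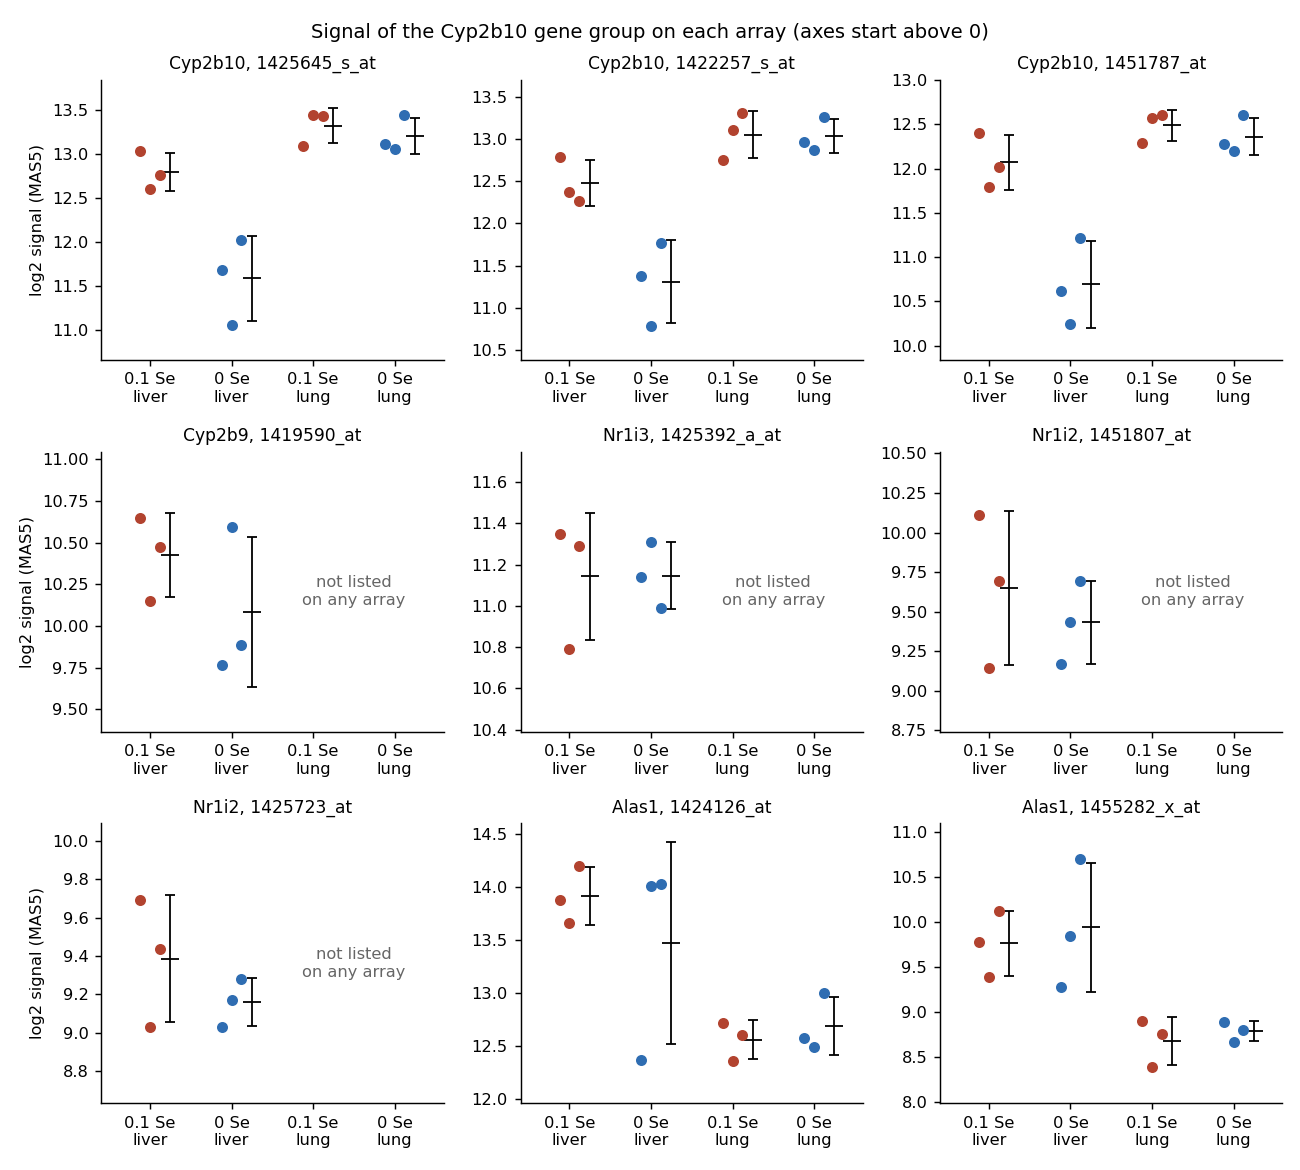
Log2 MAS5 signal (vertical axes, which start above 0) of the 9 probe sets in 0.1 Se liver, 0 Se liver, 0.1 Se lung and 0 Se lung. Each point is 1 array, in the order of the replicate numbers, and the bar beside them is the mean ± SD. Only the 3 Cyp2b10 panels have liver points that do not overlap between diets, and the panels of Cyp2b9, Nr1i3 and Nr1i2 hold no lung points.

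Cyp2b9, which adult female mice express more strongly in liver than males, did not separate by diet. Its signal was 10.65, 10.15 and 10.48 in 0.1 Se livers, against 9.77, 10.60 and 9.89 in 0 Se livers. The second 0 Se liver, the lowest for Cyp2b10, was the highest of its group for Cyp2b9 and lay among the 0.1 Se values. The difference was 0.34 ± 0.21 (SE, n = 3 per diet), with a 95% interval of -0.13 to 0.81, and whether it differed from that of Cyp2b10 was not tested. Without the second 0 Se liver it was 0.60 and without the first 0.18.

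The receptors differed little. Nr1i3 signal was 11.35, 10.79 and 11.29 in 0.1 Se livers, against 11.14, 11.31 and 10.99 in 0 Se livers, so the diets overlapped throughout. Its difference was 0.00 ± 0.15 (SE), with an interval of -0.34 to 0.34, which leaves room for a small change either way.

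Nr1i2 signal with 1425723_at was 9.69, 9.03 and 9.44 in 0.1 Se livers, against 9.03, 9.17 and 9.28 in 0 Se livers. With 1451807_at it was 10.11, 9.14 and 9.70 in 0.1 Se livers, against 9.17, 9.43 and 9.69 in 0 Se livers. The 0.1 Se livers lay above the 0 Se livers, except for the second, which was at or below them. The differences were 0.23 ± 0.18 and 0.22 ± 0.23 (SE), with intervals of -0.18 to 0.63 and -0.30 to 0.73.

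Alas1, whose product sets the pace of heme synthesis in liver and whose transcript is raised by the same inducers as Cyp2b10, gave no common direction. With 1424126_at its signal was 13.88, 13.66 and 14.20 in 0.1 Se livers, against 12.37, 14.01 and 14.03 in 0 Se livers. A single array, the first 0 Se liver, lay far below the other two of its group, and the rest overlapped. With 1455282_x_at the signal was 9.78, 9.39 and 10.12 in 0.1 Se livers, against 9.28, 9.85 and 10.70 in 0 Se livers, and the diets overlapped. This probe set read far below 1424126_at, and which of them reads Alas1 better was not tested. The differences were 0.44 ± 0.36 and -0.18 ± 0.31 (SE), with intervals of -0.36 to 1.24 and -0.87 to 0.51. Without the first 0 Se liver they were -0.11 and -0.51. The SD of 0.95 for 1424126_at among 0 Se livers was above that of 99.9% of all probe sets tested.

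Counted together, 3 of the 9 probe sets, all of Cyp2b10, did not overlap between diets in liver and were higher in 0.1 Se, and the other 6 overlapped. Over all probe sets listed on the 6 liver arrays, 4.99% did not overlap with 0.1 Se higher and 7.22% with 0.1 Se lower. As the rule chose Cyp2b10 on this contrast, nothing is read from the count. By limma with an adjusted p under 0.05, 2 of 16575 probe sets were called in liver, both higher in 0.1 Se (0.0121% higher, 0% lower). They were 1460561_x_at of the selenoprotein gene Selenow and 1442025_a_at, which has no annotated gene. At an unadjusted p under 0.05, 1102 were below the threshold. In 0.1 Se liver the second array was the lowest of the 3 for 8 of the 9 probe sets and the first the highest for 7. Over all 15406 probe sets the second was lowest for 30.3% and the first highest for 34.0%. The order was more mixed in 0 Se liver, where the lowest array was the first for 5 probe sets, the second for 3 and the third for 1. There the third was highest for 7, against 32.1% over all 15876 probe sets. The 9 probe sets stand for 5 genes.

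In lung, Cyp2b10 was read on every array and hardly moved with diet. With 1425645_s_at its signal was 13.09, 13.45 and 13.43 in 0.1 Se lungs, against 13.11, 13.06 and 13.45 in 0 Se lungs. With 1422257_s_at it was 12.75, 13.10 and 13.30 in 0.1 Se lungs, against 12.97, 12.87 and 13.26 in 0 Se lungs. With 1451787_at it was 12.29, 12.58 and 12.61 in 0.1 Se lungs, against 12.28, 12.20 and 12.60 in 0 Se lungs. The diets overlapped for all 3, and the highest 0.1 Se lung and the highest 0 Se lung were nearly equal each time.

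The lung differences were 0.12 ± 0.13, 0.02 ± 0.15 and 0.13 ± 0.12 (SE, n = 3 per diet), with adjusted p of 0.895, 0.984 and 0.871 by limma. The intervals of -0.18 to 0.41, -0.31 to 0.35 and -0.15 to 0.40 leave no room for a doubling. Alas1 gave -0.13 ± 0.14 with 1424126_at (12.71, 12.36 and 12.61 in 0.1 Se lungs, against 12.58, 12.49 and 13.00 in 0 Se lungs) and an adjusted p of 0.887. With 1455282_x_at it gave -0.11 ± 0.16 (8.90, 8.38 and 8.75 in 0.1 Se lungs, against 8.89, 8.67 and 8.80 in 0 Se lungs) and an adjusted p of 0.916. In both cases the 0.1 Se and 0 Se lungs overlapped.

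Of the 5 member probe sets tested in lung, 0 were called by limma, and 0 had an unadjusted p under 0.05 by limma or by the methods' t-test, which the study applied to these arrays. Over all 21655 probe sets 1661 had such a p by limma and 1412 by the methods' t-test, so a count of 0 among 5 is near the background. Over all 21655 probe sets tested in lung, 0.0739% were called higher and 0.0185% lower in 0.1 Se, or 16 and 4 probe sets. This split turned to 5 higher and 10 lower with blanks set to the lowest value and to 28 higher and 47 lower without the first 0.1 Se lung. Of those listed on the 6 lung arrays, 6.07% did not overlap with 0.1 Se higher and 6.86% with 0.1 Se lower, while all 5 member probe sets overlapped.

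**Figure D2:**
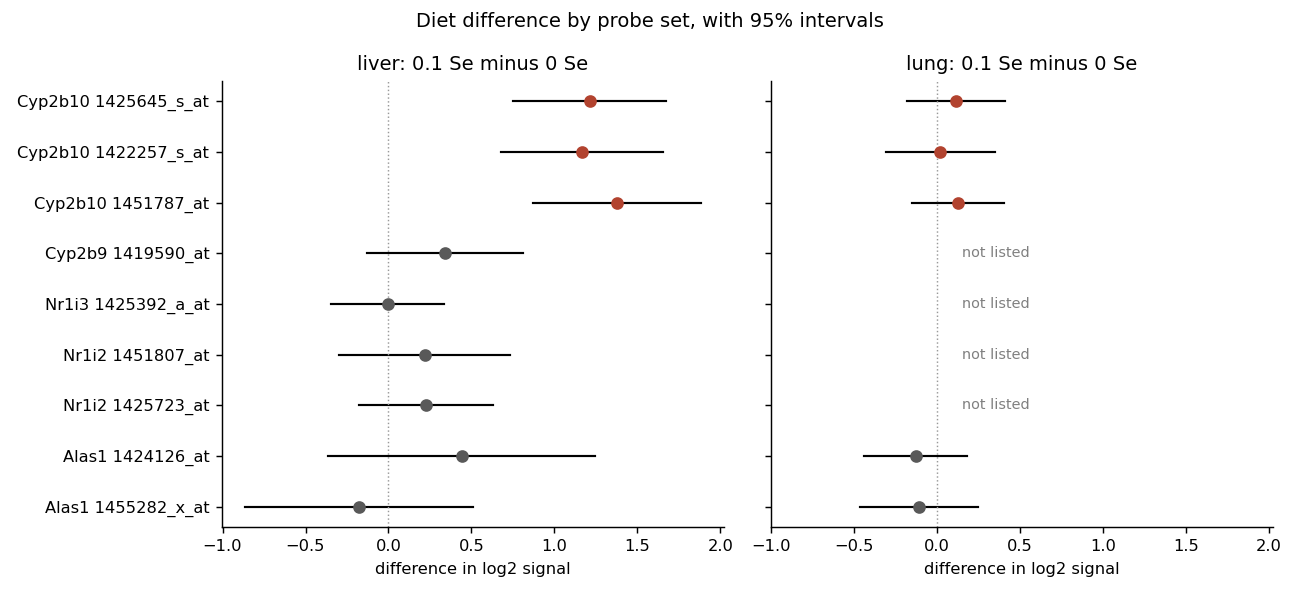
Difference in log2 signal, 0.1 Se minus 0 Se, for each probe set in liver (left) and lung (right); points are limma estimates from 3 arrays per diet and lines their 95% intervals. The Cyp2b10 points (red) lie between 1.17 and 1.38 in liver and between 0.02 and 0.13 in lung, and the lines of all other genes cross 0. Cyp2b10 was chosen by its liver diet difference, so its liver lines are a description and no test.

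The diet difference of Cyp2b10 in liver minus that in lung was 1.10 ± 0.28, 1.15 ± 0.30 and 1.25 ± 0.29 (SE) for 1425645_s_at, 1422257_s_at and 1451787_at, from a fit of the 12 arrays, with 95% intervals of 0.51 to 1.69, 0.51 to 1.78 and 0.63 to 1.88. This contrast contains the liver difference that chose the gene, so it too is given with no p. For Alas1 it was 0.57 ± 0.45 and -0.07 ± 0.39, with intervals that held 0. Over all 15112 probe sets tested, limma called 0 for a diet response that differed between the tissues, the smallest adjusted p being 0.147, and 931 had an unadjusted p under 0.05.

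By tissue, the levels of the genes were arranged in opposite ways. Cyp2b10 was lower in liver than in lung, by -1.07 ± 0.14, -1.15 ± 0.15 and -1.04 ± 0.15 in log2 signal (SE, mean of both diets, 6 livers and 6 lungs), or 2.06-fold to 2.22-fold, with adjusted p of 3.08e-06, 3.33e-06 and 7.93e-06 by limma. Alas1 was higher in liver, by 1.06 ± 0.23 and 1.12 ± 0.20, with adjusted p of 0.00048 and 7.34e-05. Over all probe sets tested in both tissues 33.9% were called higher and 47.7% lower in liver, so a call alone does not set a gene apart here.

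The tissue gap of Cyp2b10 was narrow on the 0.1 Se diet and wide on the 0 Se diet. As the lungs hardly moved with diet, this restates the liver diet difference by which the gene was chosen. It is given as a description only. Liver minus lung was -0.52 ± 0.20, -0.58 ± 0.21 and -0.42 ± 0.21 on 0.1 Se (1.34-fold to 1.49-fold), and the interval of the last, -0.86 to 0.02, held 0. On 0 Se it was -1.62 ± 0.20, -1.72 ± 0.21 and -1.67 ± 0.21 (3.08-fold to 3.30-fold). The highest 0.1 Se livers reached the range of the lungs or fell just short of it, whereas every 0 Se liver lay below every lung. The order of the 4 group means was 0 Se liver, 0.1 Se liver, 0 Se lung and 0.1 Se lung for each probe set, from low to high, and the last 2 did not differ beyond their spread. As whole tissue was measured, fewer cells that express a gene and less RNA per cell cannot be told apart.

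**Figure D3:**
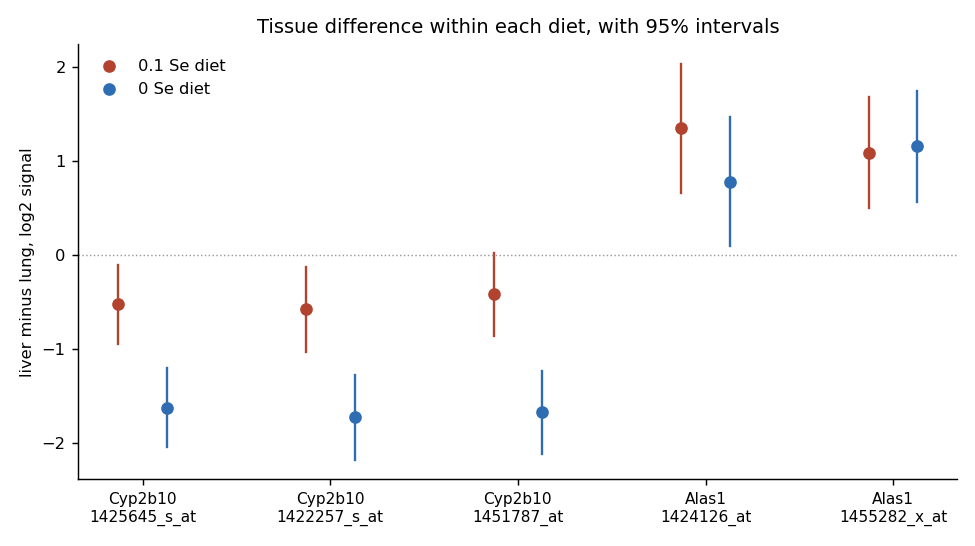
Liver minus lung in log2 signal within each diet (0.1 Se red, 0 Se blue) for the Cyp2b10 and Alas1 probe sets; points are limma estimates from 3 livers and 3 lungs, lines their 95% intervals. Cyp2b10 lies between -0.42 and -0.58 on 0.1 Se and between -1.62 and -1.72 on 0 Se, while Alas1 is above 0 on both diets. The change of the Cyp2b10 gap between diets restates the liver diet difference by which the gene was chosen.

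These tissue values rest on arrays scaled one by one. The median over all probe sets was -0.18 in the same direction as Cyp2b10, so relative to it the gene was lower in liver by a smaller amount. As the mean of both diets, Cyp2b10 stayed lower in liver under all 22 settings tried. It ran from -0.85 with arrays centred on their medians to -1.82 with quantile normalization. The gap within each diet was read only on the values as deposited. Quantile normalization took the Alas1 probe set 1424126_at to 0.26 with an adjusted p of 0.257, and the call was lost. It also moved the share of calls that were higher in liver to 31.3%, against 41.6% as deposited and 50.8% with median centring.

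The other 4 probe sets were read on all 6 liver arrays and listed on none of the 6 lung arrays. They belong to Cyp2b9, Nr1i3 and both probe sets of Nr1i2. Cyp2b10 was thus read in lungs in which neither receptor was listed.

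The genes that CAR and PXR are known to induce were read next, without a test against Cyp2b10. Of 44 targets on the list, which leaves out Cyp2b10 itself, 32 were tested in liver, and limma called 0 of them. At an unadjusted p under 0.05 there were 2 higher and 2 lower in 0.1 Se by limma, and 3 in either direction by the methods' t-test. Their median difference was 0.00, the same as the 0.00 over all 8991 genes, and 16 of 32 lay above 0. Their values ran from -0.41 to 0.60, each gene standing with its brightest probe set. Gstm1, a glutathione transferase at -0.10 ± 0.12 by that choice, gave -0.56 ± 0.18 and -0.71 ± 0.15 with 2 of its other probe sets, beyond that range.

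Cyp2c37, a P450 that phenobarbital induces in mouse liver, had the largest difference of these targets, 0.60 ± 0.32 (SE), with 2 of 3 0.1 Se livers and 3 of 3 0 Se livers listed. Gsta2, a glutathione transferase, was at 12.40 ± 0.11 in 0.1 Se livers and 12.81 ± 0.10 in 0 Se livers (SD, n = 3 each), a difference of -0.41 ± 0.10 (SE). Abcc2, the pump that moves conjugates into bile, gave -0.40 ± 0.21. The glutathione transferase Gstm3 gave -0.36 ± 0.21 with its brightest probe set and 0.33 ± 0.22 with the other, so its probe sets disagreed. Cyp3a11, the classical PXR target, gave 0.08 ± 0.11, and Cyp2c29, a CAR target, 0.07 ± 0.10.

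In lung 17 targets were tested and 0 called, with 3 lower at an unadjusted p under 0.05 by limma and 1 by the methods' t-test. The median was -0.15, against -0.02 over all 10913 genes, and 3 of 17 lay above 0. Cyp2a4, also on the list, was not among the 17, so these counts say nothing of it. The study lists it as the gene with the largest decrease in 0.1 Se on its lung microarrays. The smallest p-values belonged to the aldehyde dehydrogenase Aldh1a7 (-0.32 ± 0.10, adjusted p = 0.436), the glutathione transferase Gstm1 (-0.25 ± 0.10, adjusted p = 0.581) and Gsta4 (-0.31 ± 0.13, adjusted p = 0.619), all by limma. By tissue only the 14 targets with enough values in both tissues were tested. Of these 12 were called higher in liver and 0 lower, which is the opposite direction to Cyp2b10. Over all probe sets tested in both tissues, 33.9% were called higher and 47.7% lower in liver. Ephx1, the microsomal epoxide hydrolase, for example, was 2.25 ± 0.06 higher in liver (adjusted p = 3.91e-14), and Gstm2 and Gadd45g were not called.

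Partners of the receptors gave no calls. Of 24 partners, coactivators and corepressors, 20 were tested in liver and 14 in lung, with 0 called in each by limma. At an unadjusted p under 0.05 limma gave 1 lower in each tissue, and the methods' t-test 0 in liver and 1 in lung. Rxra, the partner with which CAR and PXR bind DNA, gave 0.06 ± 0.09 (SE) in liver. Cebpb, a factor of the acute phase, had the largest difference in liver, 0.41 ± 0.30, followed by Rxrb (0.35 ± 0.20), Nr5a2 (-0.35 ± 0.13) and the glucocorticoid receptor Nr3c1 (-0.27 ± 0.17). The other probe sets of Nr3c1 ran from -0.67 ± 0.19 to 0.03 ± 0.31, and those of Nr5a2 gave -0.30 ± 0.14 and -0.03 ± 0.13. In lung the coactivator Ppargc1a gave -0.41 ± 0.16 (adjusted p = 0.567 by limma), and -0.23 ± 0.24 with its other probe set.

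The 15 genes of the complex that holds CAR in the cytoplasm, and of the kinases that act on it, gave 9 tested in liver and 10 in lung, again with 0 called. At an unadjusted p under 0.05 there were 0 in liver by limma and by the methods' t-test, and 1 in lung by each. The co-chaperone Dnajc7, which retains CAR, gave -0.20 ± 0.14 in liver, and Egfr, the receptor through which phenobarbital acts on CAR, 0.11 ± 0.09. The other Egfr probe sets disagreed, at 0.44 ± 0.12, 0.46 ± 0.17, -0.05 ± 0.11 and -0.10 ± 0.20. The ubiquitin ligase Stub1 gave -0.15 ± 0.11 in liver and -0.23 ± 0.08 in lung (adjusted p = 0.526 by limma).

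Heme and electron supply are needed by every P450. Of 16 other genes of heme synthesis and breakdown, 14 were tested in liver and 0 called by limma, with 0 at an unadjusted p under 0.05 and 2 by the methods' t-test. Hmox1, the heme-degrading enzyme, had the largest difference there, 0.48 ± 0.23. In lung 15 were tested and 0 called, with 3 higher and 1 lower at an unadjusted p under 0.05 by limma and 4 by the methods' t-test. The lung values were led by the erythroid enzyme Alas2, at 11.08 ± 0.10 in 0.1 Se lungs and 10.43 ± 0.24 in 0 Se lungs (SD, n = 3 each; adjusted p = 0.111 by limma), and by Fech, the last enzyme of the pathway (0.46 ± 0.10, adjusted p = 0.222), whose other probe sets gave 0.36 and 0.00. By tissue 13 of 14 were called higher in liver, the direction of Alas1, against 33.9% of all probe sets tested in both tissues.

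Of 11 electron carriers and other partners of P450 enzymes, 9 were tested in each tissue and 0 called by limma. In liver 1 was higher at an unadjusted p under 0.05 and 1 passed by the methods' t-test, and in lung these numbers were 0 and 1. Fmo5, a flavin monooxygenase, gave 0.50 ± 0.17 in liver, and 0.34 ± 0.18 and 0.27 ± 0.26 with its other probe sets. Cytochrome b5 (Cyb5a, 0.00 ± 0.10) and its reductase (Cyb5r3, 0.00 ± 0.09) gave values near 0.

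**Figure D4:**
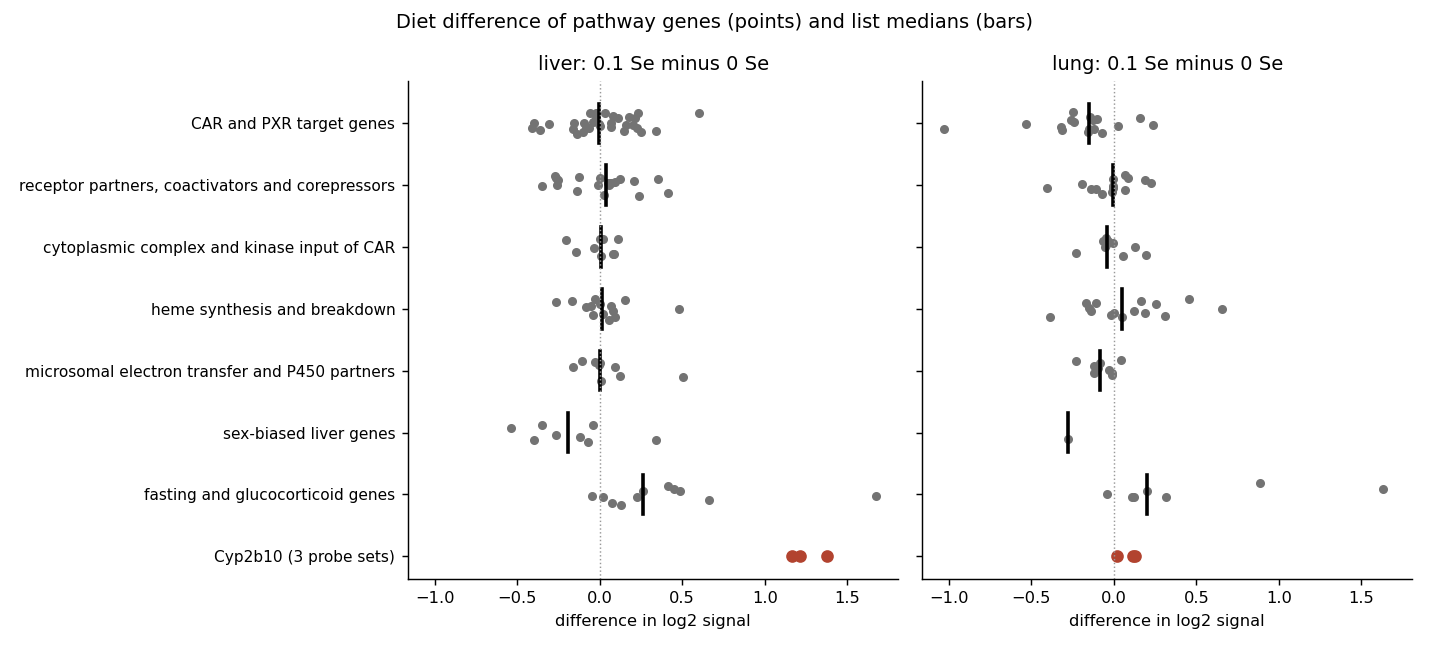
Difference in log2 signal, 0.1 Se minus 0 Se, of the genes of 7 lists in liver (left) and lung (right); each grey point is 1 gene, the black bars are list medians, and the red points are the 3 Cyp2b10 probe sets. In liver 1 point of the lists, Zbtb16 at 1.67, lies at or beyond the Cyp2b10 values, and in lung Cyp2b10 lies among the other genes.

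Cyp2b genes also follow sex and fasting in mouse liver, so these lists were read as well. Of 20 sex-biased liver genes, 8 were tested and 0 called by limma, with 2 lower in 0.1 Se at an unadjusted p under 0.05 and 2 by the methods' t-test. Their median was -0.19, and 1 of 8 lay above 0. The glucuronosyltransferase Ugt2b38 was at 10.67 ± 0.16 in 0.1 Se livers and 11.20 ± 0.20 in 0 Se livers (SD, n = 3 each), the hydroxylase Cyp7b1 differed by -0.35 ± 0.11 (SE), and the elongase Elovl3 by -0.40 ± 0.27.

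Of 14 fasting and glucocorticoid genes, 11 were tested in liver and 0 called by limma, with 2 higher at an unadjusted p under 0.05 and 1 by the methods' t-test. Here 10 of 11 lay above 0, with a median of 0.26. Zbtb16, a transcription factor that glucocorticoids induce, was at 10.10 ± 0.32 in 0.1 Se livers and 8.43 ± 0.82 in 0 Se livers (SD, n = 3 each), a difference of 1.67 ± 0.34 (SE) that was 0.88 ± 0.21 with its other probe set. In the same livers Fkbp5, a chaperone of the glucocorticoid receptor, differed by 0.66 ± 0.27. In lung the Cyp2b10 differences were 0.02 to 0.13, with intervals that held 0. Of the 7 fasting and glucocorticoid genes tested there 0 were called. Zbtb16 gave 1.63 ± 0.37 (adjusted p = 0.227 by limma) and Fkbp5 0.89 ± 0.22 (adjusted p = 0.298). At an unadjusted p under 0.05 limma gave 2 higher and the methods' t-test 0 in lung. Whether these values have a part in the Cyp2b10 difference was not tested.

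The labels of diet and tissue held against marker genes, with arrays of a group correlating at 0.979 to 0.988 and 17235 to 17923 probe sets listed per liver array and 22197 to 22718 per lung array. Selenow was at 10.25 to 10.69 in 0.1 Se livers and 8.40 to 8.97 in 0 Se livers, and at 11.91 to 12.20 in 0.1 Se lungs and 10.71 to 11.50 in 0 Se lungs (1460561_x_at). Gpx1 was at 15.24 to 15.29 in 0.1 Se livers and 14.58 to 14.94 in 0 Se livers, and at 13.26 to 13.54 in 0.1 Se lungs and 12.88 to 13.26 in 0 Se lungs. Albumin (Alb) was at 15.51 to 15.93 in liver and listed on 3 of 6 lung arrays, at most at 7.15, and the surfactant gene Sftpc was at 14.80 to 15.84 in lung and listed on 1 of 6 liver arrays (1418639_at).

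Cell type markers were set beside Cyp2b10. In liver 12 of 14 macrophage and Kupffer cell markers were tested and all 12 lay above 0, with a median of 0.37, 0 called and 6 higher at an unadjusted p under 0.05 by limma (3 by the methods' t-test). Their summed log2 signal was 14.81 to 15.16 in 0.1 Se livers and 14.33 to 14.73 in 0 Se livers, without overlap. Over all 16575 probe sets tested in liver, 1102 had an unadjusted p under 0.05 by limma, in either direction. Of single probe sets listed on all liver arrays, 4.99% did not overlap with 0.1 Se higher. The scavenger receptor Marco gave 0.90 ± 0.20 and the complement subunit C1qc 0.61 ± 0.15, while Chil3 and Siglecf were not listed. The summed hepatocyte markers (11 of 12 listed, without Serpina1a) were at 18.87 to 18.99 in 0.1 Se livers and 18.67 to 18.99 in 0 Se livers, with a median difference of 0.12, and 10 of 11 lay above 0. Pericentral markers, of the zone in which inducers raise Cyp2b10 most, summed to 17.24 to 17.28 in 0.1 Se livers and 17.14 to 17.38 in 0 Se livers (median difference -0.04), so both diets overlapped. Periportal markers summed to 17.19 to 17.33 in 0.1 Se livers and 17.12 to 17.36 in 0 Se livers (10 of 12 listed, without Gls2 and Sds; median difference 0.03). In lung, where Cyp2b10 hardly moved, all 8 macrophage markers tested also lay above 0, with a median of 0.27. Of these 0 were called by limma, and 0 had an unadjusted p under 0.05 by limma or by the methods' t-test. The part of the macrophage markers in the Cyp2b10 difference was not tested.

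In lung, club and secretory cell markers, of the cells that carry 2B enzymes, were tested for 8 of 10 genes, and 0 of 8 lay above 0 (median -0.29; 0 called, 3 lower at an unadjusted p under 0.05 by limma and 0 by the methods' t-test). Summed, they were at 16.95 to 17.51 in 0.1 Se lungs and 17.34 to 17.79 in 0 Se lungs, and all 10 were listed. Scgb3a1, a secretoglobin of large airways, was at 9.71 ± 2.71 in 0.1 Se lungs and 12.77 ± 0.53 in 0 Se lungs (SD, n = 3 each), a difference of -3.06 ± 0.99 (SE, adjusted p = 0.456 by limma), and Scgb3a2 gave -0.43 ± 0.15 (adjusted p = 0.519). Ciliated cell markers lay below 0 for 10 of 10 genes (median -0.74; 0 called, 8 lower at an unadjusted p under 0.05 by limma and 2 by the methods' t-test). Their sum was 12.74 to 13.47 in 0.1 Se lungs and 13.52 to 13.75 in 0 Se lungs. Over all 21655 probe sets tested in lung, 1661 had an unadjusted p under 0.05 by limma, in either direction. Of single probe sets listed on all lung arrays, 6.86% did not overlap with 0.1 Se lower. The Cyp2b10 differences in these lungs were 0.02 to 0.13. What the airway markers contribute to the lung values of Cyp2b10 was not tested.

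The genes whose centred signals ran closest to Cyp2b10 (1425645_s_at) were ranked by the root mean square difference over the 6 arrays of a tissue, with no p. In liver, among 13282 probe sets, they were Marco (0.261), the selenoprotein gene Selenok (0.272), the interleukin receptors Il1r1 (0.282) and Il6ra (0.290), the hyaluronan receptor Cd44 (0.287) and Crebrf (0.334), against 0.089 and 0.131 for the other Cyp2b10 probe sets and a root mean square of 0.680 for the Cyp2b10 profile itself. Their diet differences of 0.75 to 0.90 follow from being picked by likeness to Cyp2b10. In lung, among 17418 probe sets, they were Zcchc24 (0.023), the aldo-keto reductase Akr7a5 (0.028), the flavin monooxygenase Fmo2 (0.029), Hecw2 (0.034), Syne2 (0.036) and Capn15 (0.040), against 0.177 for the Cyp2b10 profile itself.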

How the data were processed

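Probe set signals are MAS5 signals that the authors derived array by array, each scaled on its own, with absent calls excluded. R 2.15.2 and affy 1.36.0 are credited in the processing notes of the submitters. What was deposited is a log2 table with 29467 rows of probe sets and 112136 blank cells, whose values run from 6.64, where the signal is 100, up to 16.4. It was used as deposited, without further scaling, which leaves tissue differences open to the scaling of each array. The 58 control probe sets were left out. Of the rest, 24504 had a single annotated gene (24434 matched by Entrez number), 660 several and 4245 none.

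Probe sets with at least 2 values in each group were tested with lmFit and eBayes (with a trend) of limma 3.58.1 in R 4.3.3, over the whole table, with the Benjamini-Hochberg adjustment at 0.05. Diets were compared within a tissue, and tissues and the interaction over the 12 arrays. The script was tested on simulated data. The number of arrays limits the precision. The member genes and the gene lists were chosen with earlier results of these data known. Each list gene stood with its brightest tested probe set, and the named ones were up to 4 with the largest liver difference and up to 3 with the smallest p in lung. Other list genes named (Cyp3a11, Cyp2c29, Rxra in liver, Cyb5a, Cyb5r3, Ephx1) were picked afterwards. Promoters came from RefSeq. Alternatives were other filters, scalings, pseudocounts, moderation, array weights, a replicate block, the methods' t-test and leaving out each array.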

Additional observations from a re-analysis of the deposited data

How the results depend on the processing

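With 3 arrays per group, and blanks that may hide low signals, small diet differences were not detectable, and receptor levels in lung have no bound. In liver 2 probe sets were called, against 1 with a value on every array, 11 with blanks at the lowest value, 0 without the trend, 0 with the replicate block, 13 with 12 arrays in one fit, and 985 by the methods' t-test at its unadjusted threshold (136 with a 1.5-fold change added, 0 after Benjamini-Hochberg). In lung 20 were called, against 10 with quantile normalization, 0 without the trend, 13 with a robust trend, 40 with array weights, 53 with the replicate block and 1412 by the methods' t-test (179 with the fold change, 0 after Benjamini-Hochberg). Between tissues 12326 were called, against 19861 with blanks at the lowest value. The interaction had 0, against 32 with blanks at the lowest value and 3 with the replicate block. Leaving out 1 array gave 0 to 9 in liver (9 without the first 0.1 Se liver), 0 to 75 in lung (75 without the first 0.1 Se lung) and 0 to 3 for the interaction. The replicate block changed no member call. Under the alternatives 464 member values stayed within the replicate spread or on their side of the threshold, 6 lung values changed sign, the tissue call of Alas1 (1424126_at) was lost with quantile normalization, and its interaction moved to 0.02 without the first 0 Se liver. Averaging the probe sets of a gene kept 41 list medians within the spread of their genes. Another 5 could not be judged, as only 1 gene was tested there and gave no spread. Same-numbered arrays of the 2 diets within a tissue correlated at -0.188 to 0.147 in their deviations. Same-numbered liver and lung arrays correlated at 0.064 to 0.11 on 0 Se and at -0.039 to 0.023 on 0.1 Se. Differently numbered arrays were not compared, so these values do not settle whether the numbers pair the arrays. The arrays were treated as separate, and whether the numbers mark shared mice is not given in the sources used here. Leaving out 1 lung array gave -0.11 to 0.17 for Cyp2b10 (1422257_s_at), -0.23 to 0.028 for Alas1 (1424126_at) and -0.22 to 0.037 for Alas1 (1455282_x_at). In liver, where no p is given, leaving out 1 array also turned the sign of both Alas1 probe sets (-0.11 to 0.72 and -0.51 to 0.20), of Nr1i3 (-0.11 to 0.17) and of Nr1i2 1451807_at (-0.01 to 0.47), and that of the second Alas1 probe set in the interaction (-0.40 to 0.31). For Cyp2b10 in liver the lowest and highest values over 19 settings were 0.90 and 1.64 over its 3 probe sets.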
